A study of Mus musculus with 4 samples.

Results

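The tripartite motif (TRIM) family was examined in *Irf4*-/- leukemia cells given IRF4 back. Members were the protein-coding genes (GENCODE M21 annotation of GRCm38) whose symbol is Trim followed by a number, which gave 68 genes of 55359 in the count table. The cells were T8, a mouse B cell precursor leukemia line derived from a single primary tumor of an *Irf4*-/- mouse, so that values describe 1 tumor line. All 4 libraries came from *Irf4*-/- cells that had been transduced with a retrovirus. EV-RV, the control, codes for GFP alone and IRF4-RV codes for GFP plus IRF4, and each group held 2 libraries, described by the submitters as biological replicates. Cells that were still viable were taken about a day after transduction, and no treatment beyond transduction was named. The sample titles and tissue entries name T8, while the protocol text of the same labels names T11.

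TRIM proteins typically carry a RING domain, which makes many of them E3 ubiquitin ligases, followed by B-box zinc fingers and a coiled coil. The C-terminal part differs between members and sets what each one binds. Several members are induced by type I interferon and act in the sensing or restriction of viruses, and others repress transcription, control protein turnover or organize organelles. IRF4 is a lymphoid transcription factor that binds the GAAA core shared by interferon response elements, alone or next to an ETS partner such as PU.1.

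Whether the labels fit the data was checked on *Irf4* itself. It had 8070 and 7600 counts in EV-RV and 95578 and 90693 counts in IRF4-RV, a log2 difference of 3.46 (SE 0.0907, adjusted p = 1.14e-06 by the edgeR quasi-likelihood test used throughout). Since the EV-RV vector codes for GFP alone, the EV-RV counts were assigned to *Irf4* in *Irf4*-/- cells without an IRF4 vector. The log2 difference is thus not one from an *Irf4* count of 0. In IRF4-RV the count table does not separate reads of the endogenous locus from those of the vector. Library totals ranged from 31230223 to 37817752 counts. Summed counts of 9 B cell progenitor markers were 117762 to 119775 in EV-RV and 89023 to 95445 in IRF4-RV, with *Rag1* at 0 or 1 count in each library. T and NK markers summed to 38 to 58 counts per library, and myeloid markers to 44 and 50 counts in EV-RV against 265 and 288 in IRF4-RV, with *Adgre1*, *S100a8* and *S100a9* at 0 throughout. The myeloid difference lay in *Mrc1*, with 24 and 23 counts against 260 and 230, while *Csf1r* had 0 to 3 counts and *Lyz2* 0 or 1. The 6 stromal markers summed to 1392, 2434 and 1425 counts in EV-RV replicates 1 and 2 and IRF4-RV replicate 1, and to 6821 in IRF4-RV replicate 2. The part of other cells in the differences below was not tested, and since these are bulk libraries, fewer cells of a type and less RNA per cell cannot be told apart.

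Of the 68 members, 40 had enough reads to be tested and 28 did not. Among the latter, *Trim43b*, *Trim50*, *Trim60*, *Trim61* and *Trim63* had no read in any of the 4 libraries, and 20 more had 1 to 9 counts over all libraries together. The highest total of an untested member was 17 counts, for *Trim71*. A count of 0 allows a level of up to 0.0824 to 0.0952 CPM (counts scaled to a common library size) in these libraries, for counting error only. The 68 members together took 0.204% and 0.190% of all counts in EV-RV and 0.222% and 0.218% in IRF4-RV.

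Compared per length of exon, as CPM per kb, 3 members led in EV-RV. *Trim28*, the corepressor that KRAB zinc finger proteins recruit to silence retroelements, stood at 184.7 CPM per kb. *Trim35*, an E3 ligase, and *Trim27*, which works with the endosomal retromer machinery, followed at 37.81 and 34.18. *Trim25*, which ubiquitinates the RNA sensor RIG-I, was at rank 4 with 21.24 CPM per kb. In IRF4-RV the order of the leading members had changed, with *Trim28* at 149.4, *Trim30a* at 71.42 and *Trim25* at 50.09 CPM per kb in the lead. *Trim30a*, an interferon-induced mouse gene that restrains NFκB signaling, had been at rank 8 in EV-RV with 11.64 CPM per kb. *Trim35* was at rank 4 in IRF4-RV with 38.11 CPM per kb, close to its EV-RV level.

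**Figure D1:**
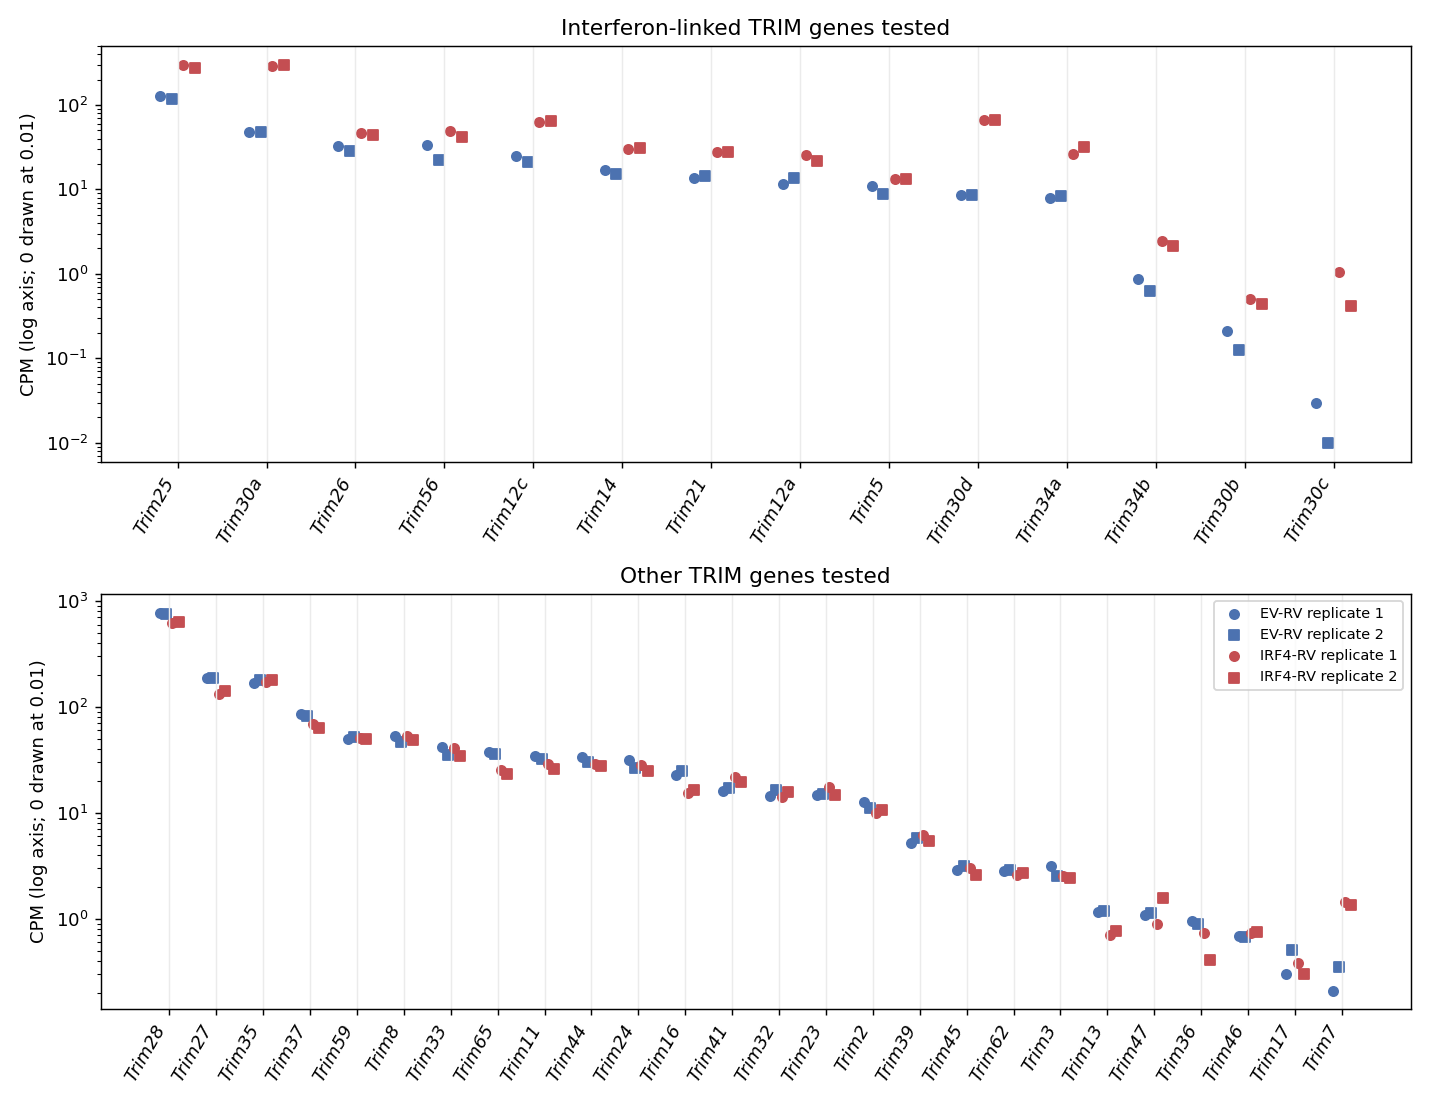
Level of the 40 tested TRIM members in each library as CPM after TMM scaling (log axis), with EV-RV and IRF4-RV libraries as separate points. A level of 0, found in EV-RV replicate 2 for *Trim30c*, is drawn at the bottom of the axis, and the groups lie well apart for *Trim30a* and *Trim30d* but overlap for *Trim35* and *Trim59*.

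Whether the response to IRF4 was limited to interferon-linked members was asked by splitting the family. A list of 16 members whose transcription interferon is known to raise in mouse or human cells was used (*Trim5*, *6*, *12a*, *12c*, *14*, *21*, *25*, *26*, *30a*, *30b*, *30c*, *30d*, *34a*, *34b*, *38* and *56*). The list was chosen with earlier results of these data known. Its counts and medians therefore describe the split and are not an independent test of it. Of its 14 tested members 13 were higher in IRF4-RV at an adjusted p under 0.1, none was lower, and *Trim30b* was not called. Roles in antiviral sensing did not decide the list, so that *Trim65*, which acts on an RNA sensor and was lower, stood outside it. Of all 14637 genes tested, 29.7% were called, 16.0% as higher and 13.7% as lower. The groups did not overlap in 4585 of these genes with IRF4-RV above and in 4381 with it below. Among the 40 tested members the numbers were 17 and 11. With 2 libraries per group, a lack of overlap is thus common and says little about a single gene. Of the 26 tested members outside the list, 2 were higher (7.69%), 6 were lower (23.1%) and 18 were not called, so that the share called outside the list, 30.8%, was close to that of all genes and the share called higher was below it. The median log2 difference was 1.35 over the 14 tested members of the list, -0.12 over the 26 others and 0.01 over all genes tested. The upward calls outside the list were *Trim7*, which had few reads, and *Trim41*, whose call was lost in several alternatives given below. Leaving out IRF4-RV replicate 2, the library with the high stromal sum, left a single IRF4-RV library. Fewer of all genes tested were called then, and among members *Trim28*, *Trim37* and *Trim11* lost their call as lower. Their log2 differences were -0.32, -0.29 and -0.20 without that library, against -0.31, -0.35 and -0.28 with it. What part the smaller number of libraries had in the lost calls was not tested. Without TMM scaling, the share of higher genes among all calls fell from 53.8% to 37.8%, and that among member calls from 71.4% to 68.4%.

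The filter on low counts touches these numbers. *Trim7*, *Trim30b* and *Trim30c* reached it only through the IRF4-RV libraries, in which they were high, and *Trim17* only through EV-RV. Of the 36 members that reached it in both groups, 13 were higher and 6 were lower. Over all genes tested, 16.0% were higher and 13.7% lower. These shares include genes that reached the filter in a single group, and shares without them were not computed. The 12 interferon-linked members among the 36 had a median log2 difference of 1.11.

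**Figure D2:**
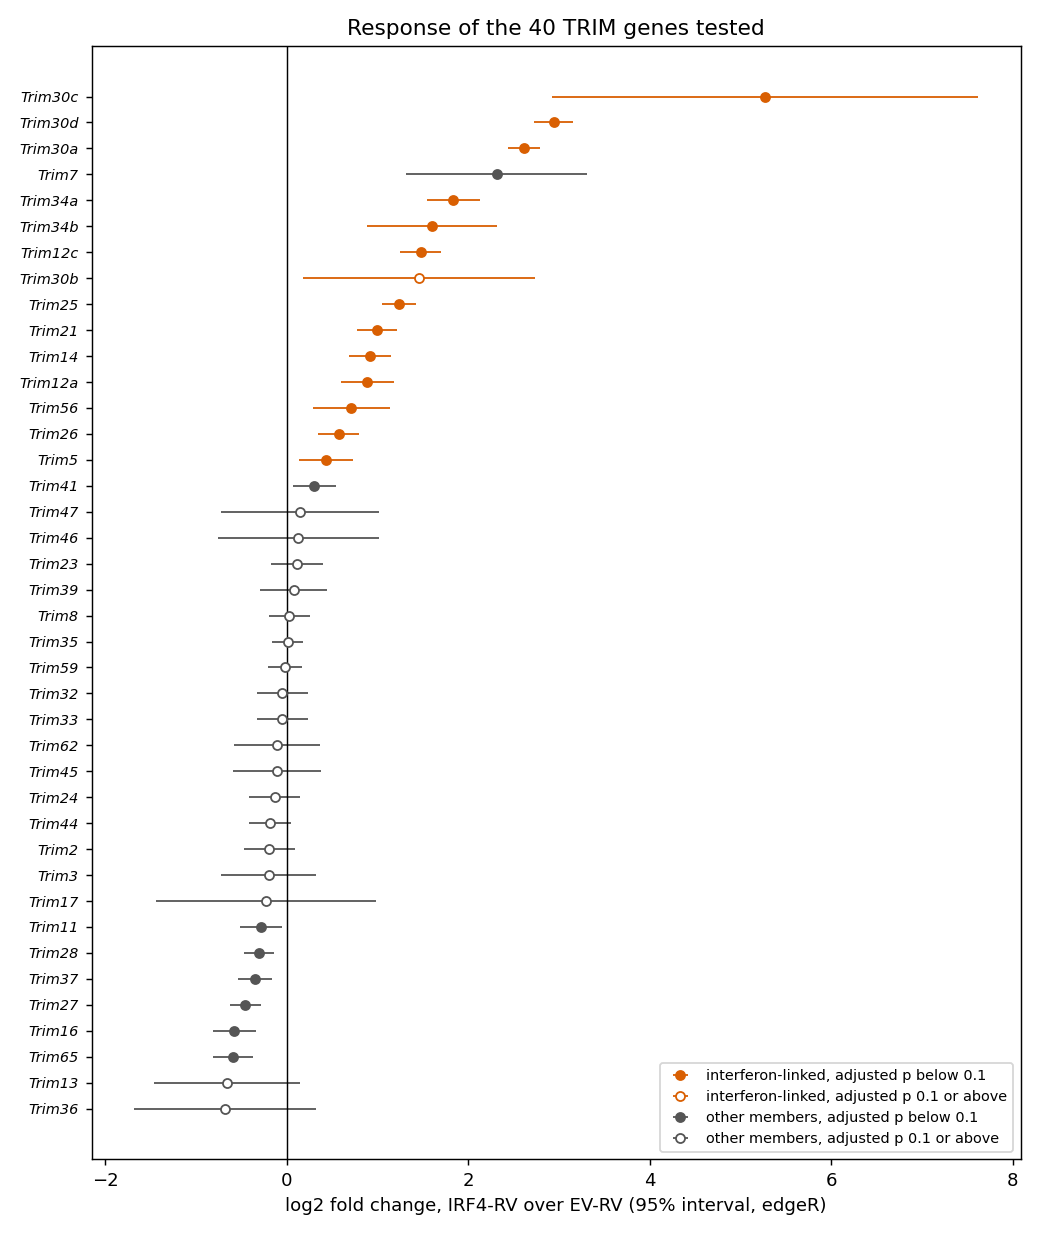
Log2 difference (IRF4-RV minus EV-RV) of each tested TRIM member with its 95% interval from the edgeR fit, colored by the interferon-linked list and by the call. *Trim30c* at 5.27 rests on 1 count in EV-RV, and below it the interferon-linked members fill the upper end down to *Trim5* at 0.43, with *Trim7* among them.

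The genes named as examples of the interferon-linked set all rose. *Trim21*, the cytosolic antibody receptor that targets antibody-coated virus for degradation, measured 13.6 and 14.5 CPM in EV-RV and 28.0 and 27.8 in IRF4-RV. The difference was 0.99 on the log2 scale (SE 0.0963, edgeR adjusted p = 0.000336), or 1.99-fold. *Trim25* measured 127 and 117 CPM against 299 and 278, a log2 difference of 1.24 (95% interval 1.05 to 1.42, edgeR adjusted p = 4.23e-05). In both genes the gap between groups was several times the distance between replicates. *Trim30a* measured 47.8 and 47.9 CPM in EV-RV against 289 and 299 in IRF4-RV, a 6.14-fold difference (log2 2.62, SE 0.0758, edgeR adjusted p = 1.38e-06). *Trim34a*, a mouse relative of human *TRIM34*, measured 7.94 and 8.28 CPM against 26.2 and 31.6, a log2 difference of 1.84 (SE 0.125, edgeR adjusted p = 5.07e-05). As exon-length scaled levels, *Trim25* and *Trim30a* ended above *Trim34a* and *Trim21*, at 50.09 and 71.42 CPM per kb against 11.16 and 7.515.

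*Trim34a* belongs to a cluster of *Trim* genes on chromosome 7 that has expanded in the mouse. In the GENCODE annotation (GRCm38) 10 protein-coding members lie between 104218793, the start of *Trim6*, and 104507849, the end of *Trim30d*. *Trim6* had 0, 1, 3 and 2 counts and was not tested. Of the 9 that were tested, 8 were higher, against 16.0% of all genes tested, and *Trim30b* was not called. The median log2 difference was 1.60. *Trim30b* and *Trim30c* reached the filter on low counts only through IRF4-RV, so that they entered this count and median through their level there. *Trim5*, *Trim12a*, *Trim12c*, *Trim30a*, *Trim30d*, *Trim34a* and *Trim34b* reached it in both groups, and each was higher. *Trim30d* rose from 8.60 and 8.53 CPM to 65.7 and 65.8 CPM, which was 7.67-fold (log2 2.94, SE 0.0930, edgeR adjusted p = 1.71e-06). Its replicates were nearly equal within each group. *Trim12c*, a relative of the retrovirus restriction factor *Trim5*, rose from 24.7 and 21.4 to 63.4 and 64.6 CPM (log2 1.47, edgeR adjusted p = 4.90e-05). *Trim12a*, from the same group of *Trim5* relatives, rose from 11.7 and 13.6 to 25.3 and 21.6 CPM (log2 0.89, edgeR adjusted p = 0.00206). *Trim5* itself showed the smallest called difference of the cluster, from 10.8 and 8.91 to 13.3 and 13.4 CPM (log2 0.43, SE 0.130, edgeR adjusted p = 0.0488). Its groups did not overlap, but its adjusted p was 0.192 without EV-RV replicate 2 and 0.104 without IRF4-RV replicate 1 in edgeR. The call was lost also in DESeq2 (adjusted p = 0.109) and without TMM scaling in edgeR (adjusted p = 0.134).

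The other members of the cluster had few reads. *Trim34b* had 29 and 20 counts in EV-RV and 83 and 78 in IRF4-RV (log2 1.60, SE 0.309, edgeR adjusted p = 0.00839). *Trim30b* had 7 and 4 counts against 17 and 16, for which the interval of the log2 difference ran from 0.17 to 2.74 and the edgeR adjusted p was 0.103. *Trim30c* had 1 and 0 counts in EV-RV and 36 and 15 in IRF4-RV, a CPM ratio of 47.1 with an exact counting interval of 8.08 to 1900 (edgeR adjusted p = 0.00818). With 1 library left out, its fitted log2 difference ran from 4.43 without IRF4-RV replicate 1 and 4.46 without EV-RV replicate 2 to 7.65 without EV-RV replicate 1, with edgeR adjusted p values of 0.0085, 0.0559 and 0.0214. The *Trim30* genes thus ranged in IRF4-RV from below 1 CPM for *Trim30b* to 293.6 CPM for *Trim30a*. Their sequences overlap in part, and how the authors' counting treated reads with several matches is not given in the sources used here. Of the exonic stretches of 50 bases in *Trim34a* and *Trim34b*, 59.7% and 56.8% also occur in another gene, in large part in each other. For *Trim12c* and *Trim5* it was 33.7% and 36.6%, for *Trim12a* 10.5%, and for *Trim30a* and *Trim30d* 5.98% and 7.49%. The values of *Trim34a*, *Trim34b*, *Trim12c* and *Trim5* are uncertain to that extent.

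**Figure D3:**
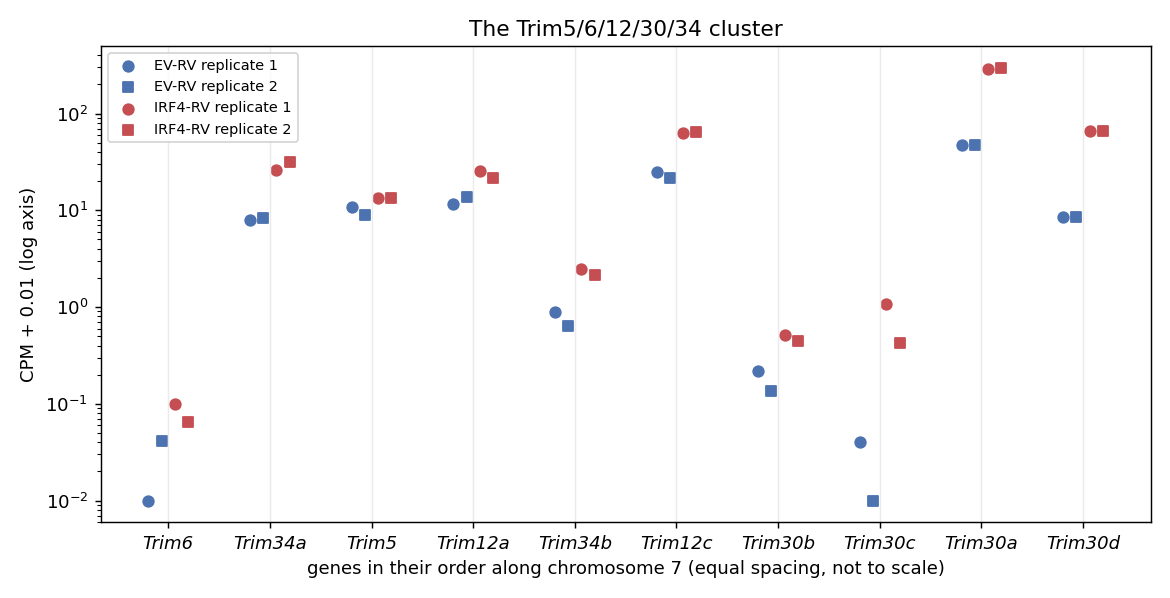
CPM (log axis, with a small constant added so that 0 can be drawn) of the 10 members of the chromosome 7 cluster in the 4 libraries, in their order along the chromosome and with *Trim6*, which was not tested, at the left. The IRF4-RV points lie above the EV-RV points for each member shown, with the widest gap among well-covered genes at *Trim30a* and *Trim30d*.

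Since IRF factors bind paired GAAA elements, the promoters of the members were searched for them. RefSeq windows (GRCm38.p6) from 250 bases before to 50 bases after the start site existed for 53 of 68 members. The first pattern was GAAANNGAAA on either strand, the core of an interferon-stimulated response element (ISRE), and the second was GGAANNGAAA, an ETS-IRF composite element. The patterns cannot match at the same place, but matches may overlap. The ISRE-like pattern stood in the windows of 8 of 15 interferon-linked members (53.3%), of 1 of 38 others (*Trim2*, 2.63%) and of 1079 of 27025 genes with a window (3.99%). The composite pattern stood in 5 of 15 interferon-linked members (33.3%; *Trim5*, *Trim12a*, *Trim12c*, *Trim25* and *Trim34b*). It stood also in 3 of 38 others (7.89%; *Trim15*, *Trim40* and *Trim44*) and in 3.16% of genes with a window. *Trim44* was not called, at log2 -0.18, and *Trim15* and *Trim40* were not tested. Of the 6 members that fell, 3 had a window and neither pattern was in it. No match was found either for *Trim7*, *Trim14*, *Trim30c*, *Trim41* and *Trim56*, which were called higher, though not all of these had a window. These matches describe letters in a window, and related genes share sequence, so that members of the cluster are not separate observations.

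Stretches of called members that rose are shown because they hold the pattern, with 30 bases each, written 5′ to 3′ on the strand of the gene, and with the matched letters in capitals. Those of *Trim21* and *Trim26* hold overlapping matches in a run, and that of *Trim25* is the composite pattern. Not shown are those of *Trim34b*, a gene of few reads with composite matches at -228 and -170 from its start site, and of a second start site of *Trim30a*, with an ISRE-like match at 3. The stretches shown first lie at chr7:102565447-102565476 (minus strand) for *Trim21*, chr17:36836979-36837008 (plus) for *Trim26* and chr11:88999389-88999418 (plus) for *Trim25*.
Trim21: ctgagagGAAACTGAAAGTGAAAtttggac
Trim26: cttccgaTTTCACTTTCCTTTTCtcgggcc
Trim25: tcctgttcagTTTCGATTCCttcctcgctg

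In the chromosome 7 cluster the stretches shown were alike between *Trim30a* and *Trim30d* and among *Trim5*, *Trim12a* and *Trim12c*. *Trim34b* did not share the ISRE-like match of *Trim34a*, and no match was found for *Trim30b* or *Trim30c*. The stretches shown are those of 6 genes. They lie at chr7:104244457-104244486 (plus strand) for *Trim34a*, chr7:104465210-104465239 (minus) for *Trim30a*, chr7:104507871-104507900 (minus) for *Trim30d*, chr7:104315466-104315495 (minus) for *Trim12a*, chr7:104353359-104353388 (minus) for *Trim12c* and chr7:104288136-104288165 (minus) for *Trim5*.
Trim34a: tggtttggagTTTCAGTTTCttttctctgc
Trim30a: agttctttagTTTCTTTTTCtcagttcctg
Trim30d: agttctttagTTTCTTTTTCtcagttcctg
Trim12a: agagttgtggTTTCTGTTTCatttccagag
Trim12c: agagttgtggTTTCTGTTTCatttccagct
Trim5: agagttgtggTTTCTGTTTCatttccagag

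The stretch of *Trim30a* is the same as that of *Trim30d*, and these genes were the 6.14-fold and 7.67-fold risers given above. In *Trim5*, *Trim12a* and *Trim12c* the composite pattern starts inside the ISRE-like match and runs on into the lower-case letters. Its first base was at positions -43, 17 and -23, in that order of genes. Positions without a minus sign count the start site itself as the first base. The match of *Trim21* began at position 14 and that of *Trim34a* at position 11. Those of *Trim30a* and *Trim30d* began 36 and 41 bases before the start site. The stretch of *Trim5* is the same as that of *Trim12a*, and their log2 differences were 0.43 and 0.89. *Trim2*, the member outside the list with the ISRE-like pattern, was not called, at 12.6 and 11.1 CPM against 10.1 and 10.6 CPM (log2 -0.19, 95% interval -0.47 to 0.09).

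*Trim25* aside, 3 interferon-linked members lying outside chromosome 7 were called higher. *Trim14*, an adaptor of the mitochondrial antiviral signaling protein MAVS, measured 17.1 and 15.4 CPM in EV-RV and 30.15 and 31.04 in IRF4-RV (log2 0.91, SE 0.0998, edgeR adjusted p = 0.000597). Its exons overlap those of *Nans* on the opposite strand over 1356 bases, 31.3% of its exon length, and *Nans* was not called (log2 -0.19). *Trim56*, a ligase linked to STING and double-stranded DNA sensing, measured 33.2 and 22.2 CPM against 49.5 and 41.4 (log2 0.71, SE 0.181, edgeR adjusted p = 0.0266). Its replicates were further apart than those of the other called members at this level, though the groups did not overlap. *Trim26*, a ligase reported to act on IRF3, measured 32.8 and 28.7 CPM against 46.7 and 44.7 (log2 0.57, SE 0.0979, edgeR adjusted p = 0.00505). *Trim38*, which limits Toll-like receptor signaling, had 2, 0, 2 and 4 counts and was not tested.

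The members that rose outside the list were neighbors on chromosome 11. *Trim7*, a ligase that binds glycogenin, spans 48826140 to 48852209 (GRCm38), and *Trim41*, a ligase that acts on protein kinase C, spans 48806404 to 48817353. *Trim7* had 7 and 11 counts in EV-RV and 49 and 49 in IRF4-RV, a 4.96-fold difference (log2 2.31, 95% interval 1.32 to 3.30, edgeR adjusted p = 0.00704). Its exons share 140 bases with *Gm12184* on the opposite strand, which had 2260 to 2506 counts per library and was not called (log2 -0.19). *Trim7* stayed a gene of low level, at 1.396 ± 0.0714 CPM (SD, n = 2) in IRF4-RV. *Trim41* measured 16.2 and 17.2 CPM against 21.6 and 19.6 (log2 0.30, 95% interval 0.06 to 0.54, edgeR adjusted p = 0.0751). That call was lost in DESeq2 (adjusted p = 0.195) and without TMM scaling in edgeR (adjusted p = 0.185). It was lost in edgeR also without EV-RV replicate 1, EV-RV replicate 2 or IRF4-RV replicate 1, with adjusted p values of 0.258, 0.135 and 0.393.

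The 6 members that fell were 1.22-fold to 1.51-fold lower. *Trim65*, a ligase that activates the RNA sensor MDA5, measured 37.1 and 36.0 CPM in EV-RV and 25.3 and 23.1 in IRF4-RV, which was 1.51-fold lower (log2 -0.59, SE 0.0930, edgeR adjusted p = 0.00337). *Trim16*, which takes part in the autophagy of damaged lysosomes, measured 22.8 and 24.9 CPM against 15.5 and 16.5 (log2 -0.58, edgeR adjusted p = 0.00557). *Trim27* measured 188 and 188 CPM against 132 and 141 (log2 -0.46, SE 0.0739, edgeR adjusted p = 0.00378). In these genes the groups did not overlap, and the calls held with each library left out. *Trim37*, a ligase of peroxisomes and centrosomes, measured 85.6 and 82.8 CPM against 68.7 and 63.8 (log2 -0.35, edgeR adjusted p = 0.0185, and 0.142 without IRF4-RV replicate 2). *Trim11*, which takes part in the removal of misfolded proteins, measured 34.2 and 32.1 CPM against 28.8 and 25.7 (log2 -0.28, edgeR adjusted p = 0.0793). Its call was lost in edgeR without EV-RV replicate 1, EV-RV replicate 2 or IRF4-RV replicate 2 (adjusted p = 0.229, 0.118 and 0.399) and in DESeq2 (0.135).

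The nuclear corepressors with a PHD finger and a bromodomain summed to 851.7 and 819.8 CPM in EV-RV and to 683.4 and 686.6 in IRF4-RV, most of it from *Trim28*. *Trim28* measured 778 and 758 CPM in EV-RV and 615 and 628 in IRF4-RV, which was 1.24-fold lower (log2 -0.31, 95% interval -0.47 to -0.14, edgeR adjusted p = 0.0168). Although its groups did not overlap, its edgeR adjusted p was 0.125 without IRF4-RV replicate 1 and 0.121 without IRF4-RV replicate 2. *Trim24*, a coregulator of nuclear receptors, measured 31.8 and 26.4 CPM against 28.1 and 24.9 (log2 -0.14, 95% interval -0.41 to 0.14). *Trim33*, a ligase of the SMAD pathway, measured 41.9 and 35.5 CPM against 40.5 and 34.1 (log2 -0.05, 95% interval -0.33 to 0.23). *Trim24* and *Trim33* overlapped between groups, and *Trim66* had 2, 3, 0 and 4 counts and was not tested. Among 9 genes that work with *Trim28* in silencing, all tested, *Setdb1* (log2 -0.35), *Hdac2* (-0.31) and *Cbx5* (-0.23, edgeR adjusted p = 0.087) were lower, *Atf7ip* (0.71) and *Hdac1* (0.25) were higher, and *Cbx1*, *Cbx3*, *Chd3* and *Chd4* were not called. That was 33.3% lower and 22.2% higher, against 13.7% and 16.0% of all genes tested.

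Outside the list, 18 members were not called. *Trim35* measured 170 and 180 CPM in EV-RV and 173 and 179 in IRF4-RV, with a 95% interval of the log2 difference from -0.16 to 0.18. *Trim59*, which is anchored in membranes, measured 49.8 and 51.5 CPM against 50.4 and 49.2 (95% interval -0.21 to 0.16). The groups overlapped for both genes. *Trim8*, a regulator of cytokine signaling, measured 53.4 and 47.1 CPM against 53.7 and 48.8 (log2 0.03, 95% interval -0.20 to 0.26), and *Trim44*, which lacks a RING domain, measured 33.99 and 29.88 CPM against 28.8 and 27.5 (log2 -0.18, 95% interval -0.42 to 0.05). The NHL-repeat members *Trim2*, *Trim3* and *Trim32* were not called (log2 -0.19, -0.20 and -0.05), and *Trim71*, the developmental RNA-binding member of that class, was not tested. The widest interval among these 18 was that of *Trim17*, with 10 and 16 counts against 13 and 11 (95% interval of the log2 difference -1.44 to 0.98). *Trim36* and *Trim13* had the most negative log2 differences of the family, at log2 -0.69 and -0.66, but edgeR adjusted p values of 0.308 and 0.224.

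**Figure D4:**
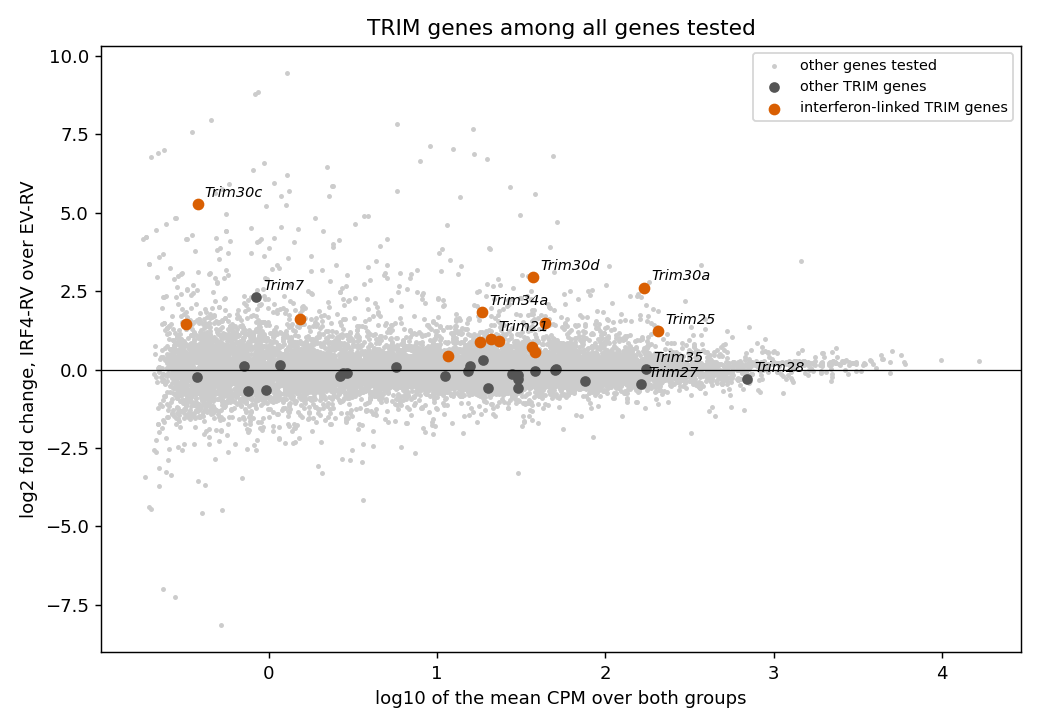
Log2 difference (IRF4-RV minus EV-RV) against mean level for all 14637 genes tested (grey) with the tested TRIM members on top, colored by the interferon-linked list. The interferon-linked members lie above 0 from low levels up to that of *Trim25*, the highest of them. *Trim28*, at a higher level, lies at -0.31.

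The summed level of the family was higher in IRF4-RV and that of the members outside the list was lower. The interferon-linked members summed to 336.4 and 307.6 CPM in EV-RV and 939.8 and 921.4 in IRF4-RV. The members outside the list summed to 1604 and 1571 CPM against 1343 and 1341, a sum of which *Trim28* was the largest term. These sums were not tested.

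The antiviral RNA-sensing pathway that *Trim25*, *Trim14* and *Trim65* act on was read from a list of 10 genes, all tested, of which 7 were higher and 0 lower, against 16.0% and 13.7% of all genes tested, with a median log2 difference of 0.44. Among them were *Ddx58*, which codes for RIG-I (log2 1.40), *Ifih1*, which codes for MDA5 (1.24), *Dhx58* (1.63), *Mavs* (0.31) and *Irf7* (1.93). *Trim65* thus fell in libraries in which the transcript of the sensor it acts on rose. A reference list of 12 interferon-stimulated genes outside the family was higher in 12 of 12, but *Ifit1*, *Ifit3*, *Mx1* and *Rsad2* reached the filter on low counts only through IRF4-RV. Over the 8 others the median log2 difference was 1.89. *Pml*, a TRIM protein by structure that carries another symbol and was not counted as a member, had 3682 and 3189 counts in EV-RV and 16801 and 17374 in IRF4-RV (log2 2.20, edgeR adjusted p = 2.66e-06). *Mid1*, likewise, was not called at 9, 11, 7 and 42 counts.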

How the data were processed

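The authors aligned reads with STAR 2.4.0j and counted them per gene with featureCounts (per the labels' processing notes), and the deposited values are raw counts of 4 libraries. Strand and multi-mapping settings are not given in the sources used here. Gene types and coordinates came from GENCODE M21, which matched 52083 of 55359 identifiers. Genes kept by filterByExpr were fitted with edgeR 4.0.16 (R 4.3.3; TMM, glmQLFit and glmQLFTest, 2 against 2 libraries, Benjamini-Hochberg over 14637 genes, threshold 0.1). CPM were computed after TMM scaling on the summed counts of the genes tested, and CPM per kb used the union of exons. SEs and 95% intervals came from the edgeR fit. Alternatives were DESeq2 1.42.0, other scalings, count filters, a threshold of 0.05, a replicate block and leaving out each library. Replicates differed beyond sampling noise (chi-square per degree of freedom 14.2 and 13.2). The script was tested on simulated data. The members and lists were chosen with earlier results of these data known. Named genes were all interferon-linked members, other called members, the corepressors, the 3 highest per kb in EV-RV, and untested members by counts. Other genes were named where a result turned on them, among them *Trim2*, *Trim3*, *Trim8*, *Trim13*, *Trim17*, *Trim32*, *Trim36*, *Trim44* and *Trim59*, after their values were seen. Intervals of counts cover counting error only.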

Additional observations from a re-analysis of the deposited data

How the results depend on the processing

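With 2 libraries per group, small changes and genes of few reads were limited by the number of libraries and by depth. Of the 21 called members, 21 were called in the same direction with DESeq2 size factors in edgeR and with all genes of at least 1 count, 19 with library size only, with a mean of at least 50 counts and at a threshold of 0.05, and 18 in DESeq2. At a mean of at least 50 counts *Trim7* and *Trim30c* were not among the genes tested. Members outside the list called higher numbered 1 with library size only, a mean of at least 50 counts, DESeq2 or a threshold of 0.05. With each library left out they numbered 1 to 2, members called lower 3 to 5 (likewise outside the list), and members outside the list called 5 to 6. The lower end of the last counts was reached without IRF4-RV replicate 2, the library with the high stromal marker sum. Each of these fits left a single library in a group, and in each fewer of all genes tested were called than with all libraries. Among members that were not called, the sign of the log2 difference turned with library size only for *Trim35* (-0.078), *Trim8* (-0.064) and *Trim39* (-0.014), and at a mean of at least 50 counts for *Trim35* (-0.0060). It turned also with a library left out, over ranges of -0.06 to 0.0007 for *Trim59*, -0.20 to 0.067 for *Trim33*, -0.15 to 0.05 for *Trim32*, -0.57 to 0.19 for *Trim17*, -0.32 to 0.48 for *Trim47*, -0.051 to 0.24 for *Trim23*, -0.036 to 0.054 for *Trim35*, -0.044 to 0.17 for *Trim39* and -0.062 to 0.11 for *Trim8*. The cause was not tested.

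The replicate numbers are shared between groups, but the sources used here do not say whether they pair libraries. Across genes tested, the departures from the group mean correlated at 0.295 between libraries that carry the same number. Same-numbered libraries thus departed in part in the same direction, which the main fit leaves out. Why they did was not tested. With the replicate block edgeR called 16 members higher and 6 lower, with *Trim30b* added (log2 1.47, adjusted p = 0.0714). In all, the block gave 6394 called genes, against 4349 in the main fit. The block changed no other member call.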
